A study of Gallus gallus with 12 samples.

Results

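The arrays of both NEUROG2 forms were jointly compared with the control arrays in neural tube cells of the chick embryo. They were chosen by their titles: 8 of the 12 arrays carry a NEUROG2 form, and the other 4 are the controls. The first group of 4 received pCIG NEUROG2-GFP, the second group of 4 received pCIG NEUROG2AQ-GFP, and the control group of 4 received pGIG-GFP, as the series' design text spells it. Plasmids were electroporated in ovo into the neural tube at stage HH10 to HH11. The design text gives 11 to 15 somites and the growth protocol 13 to 15. Embryos were taken 6 h later, neural tubes of 20 embryos were pooled for each biological replicate, and GFP-positive cells were sorted. RNA of each pool, 50 ng, was hybridised to one Affymetrix chicken array. The labels give neither the species of the inserted NEUROG2 nor the meaning of AQ. Elsewhere that name stands for a mutant whose basic region, the part that contacts DNA, is altered.

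NEUROG2 is a proneural transcription factor of the basic helix-loop-helix (bHLH) family. It pairs with E proteins, binds E-box DNA and turns on genes that commit progenitors of the neural tube to become neurons, among them the Notch ligand DLL1. ID proteins lack the DNA-binding region and trap its partners, while progenitor factors such as SOX2 and Notch targets of the HES family keep cells dividing. Comparing both forms together with control asks which genes moved on average over the forms, with both form means on one side of control.

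Values are log2 signals as deposited, so a difference of 1 is a doubling of signal. The joint difference is the mean of both form means, each weighted equally, minus the control mean, given ± its standard error. A gene passed the joint test when its adjusted p was under 0.05 in limma and both forms lay on the same side of control. All differences from control use the same 4 control arrays.

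The arrays differed along a first principal component, holding 33.2% of the variance, that set the NEUROG2 arrays (-44.1 to -32.0) apart from the NEUROG2AQ arrays (15.3 to 22.2) and the control arrays (6.30 to 25.8). On the second, with 20.0%, control replicate 1 stood apart at 52.3 and NEUROG2AQ replicate 4 at 30.2, against -30.9 to 4.11 for the other arrays. Control replicate 1 also had the highest mean log2 signal over 22 somite and paraxial mesoderm markers, 3.90, against 3.15 to 3.42 in the other controls, 3.10 to 3.43 with NEUROG2 and 2.93 to 3.22 with NEUROG2AQ. Over 10 notochord and floor plate markers it had 5.31, against 4.48 to 4.72 in the other controls. Results are therefore also given without it where that matters. Differences between 3′ and 5′ control probes, a sign of RNA quality, were 0.04 higher in the 8 arrays for actin and EF1A (exact permutation p = 0.768, adjusted over both probe groups 0.768) and 0.10 lower for GAPDH (exact permutation p = 0.0323, adjusted 0.0646). The part of either in the results was not tested.

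Of 37693 chick probe sets, 518 (1.37%) passed the joint test, 197 higher (0.523%) and 321 lower (0.852%). These stand for 294 of 13008 genes (2.26%), 122 higher (0.938%) and 172 lower (1.32%), since a gene is read from its probe set of highest mean signal. The joint difference of these genes ran from 0.33 to 2.21 among those higher and from -1.43 to -0.30 among those lower. The counts moved with single arrays. The 197 and 321 probe sets became 276 and 541 without control replicate 1, 106 and 141 without control replicate 2, 122 and 188 without control replicate 3, 140 and 208 without control replicate 4, and 148 and 212 without NEUROG2 replicate 4. Of the genes, 41 of the 122 and 64 of the 172 passed without each single array in turn. At an unadjusted p under 0.05 in limma with both forms on one side, 767 of 13008 genes were higher and 974 lower.

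A joint difference does not mean that both forms moved a gene equally, because the condition on sides set no smallest size. The NEUROG2AQ difference nearest to control among the called genes was -0.003, in PDE12. Among the 122 higher genes the median difference was 1.06 with NEUROG2 and 0.17 with NEUROG2AQ, and NEUROG2 differed from NEUROG2AQ past the test in 96. Among the 172 lower genes the medians were -0.84 and -0.32, and the forms differed in 98, leaving 74 in which the difference between forms did not pass. Over all genes 9.69% differed between the forms, and over all probe sets 6.06%. NEUROG2AQ had a difference at least as large as NEUROG2 in 5 of the higher and 12 of the lower genes. Taken alone, NEUROG2 differed from control in 10.6% of genes (6.67% of probe sets) and NEUROG2AQ in 0.108%, or 14 genes (0.0663% of probe sets). Of these 14 genes, 10 had NEUROG2 on the opposite side of control, as had 18 of the 25 probe sets. Over all genes, passing or not, both forms lay on one side of control in 8076 of 13008. Among all probe sets they did so in 24205 of 37693. NEUROG2AQ passed alone in 2 of the 122 higher and 2 of the 172 lower genes. The 8 arrays lay wholly above the 4 controls in 70 genes (0.538%; 0.345% of probe sets) and wholly below in 122 (0.938%; 0.719% of probe sets), tested or not.

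**Figure D1:**
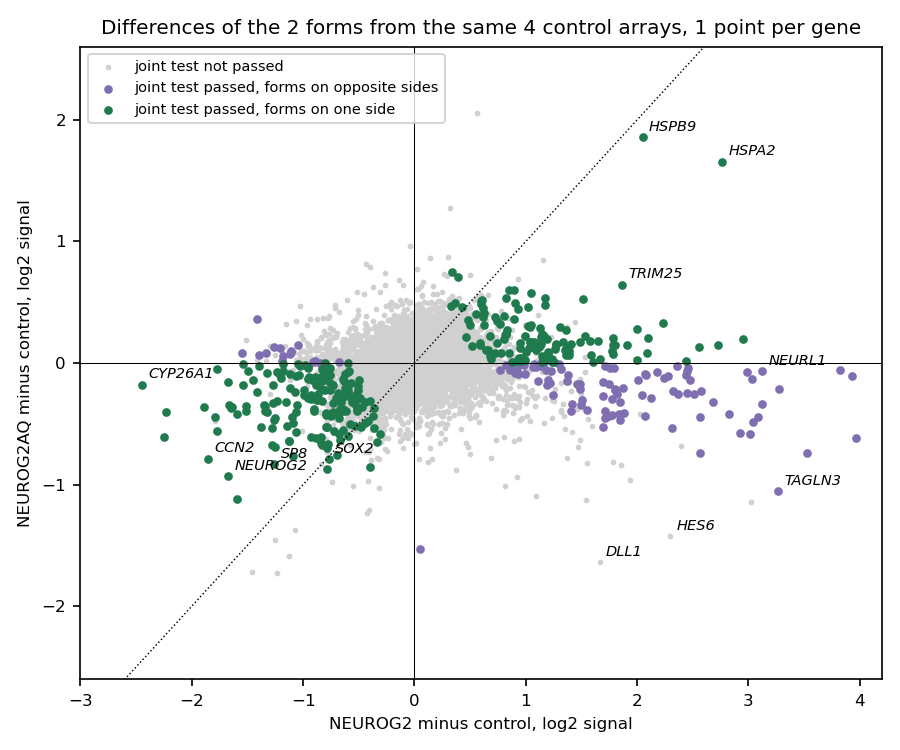
Each point is a gene, placed by its log2 difference from control with NEUROG2 (horizontal) and with NEUROG2AQ (vertical); the dotted line marks equal differences, and both axes use the same 4 control arrays. Green points passed the joint test with both forms on one side, purple points passed with the forms on opposite sides; HSPB9 lies near the dotted line, while CYP26A1 and NEURL1 lie along the horizontal line at 0.

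The strictest reading asks that each form pass alone in one direction, and few genes did. Higher were HSPA2 and HSPB9 (0.0154% of genes), by 3 probe sets (0.00796%), and lower were NEUROG2 and SFRP2 (0.0154% of genes), by 2 probe sets (0.00531%). With each single array left out, 3 higher probe sets passed, and all 3 were the same ones. The count of lower ones became 0 without control replicate 2, NEUROG2AQ replicate 3 or NEUROG2AQ replicate 4, 1 without NEUROG2 replicate 1, NEUROG2 replicate 4 or NEUROG2AQ replicate 1, 4 without control replicate 3 or 4, and 6 without control replicate 1. Without NEUROG2 replicate 2 or NEUROG2AQ replicate 2 it stayed at 2, but 1 of these was another probe set. At an unadjusted p under 0.05 in limma, 251 probe sets were higher and 599 lower with each form alone.

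Heat shock chaperones, proteins that help others fold and that cells make more of under stress, led the rises. HSPB9, a small heat shock protein, had log2 signals of 10.59, 10.31, 10.19 and 10.83 with NEUROG2 and 10.16, 10.31, 10.39 and 10.29 with NEUROG2AQ, against 8.42, 8.57, 8.14 and 8.60 in control. Every array of either form lay above every control, and the forms overlapped each other. The joint difference was 1.95 ± 0.12, or 3.87-fold (adjusted p = 1.52e-06), and each form passed alone, at 2.05 with NEUROG2 (adjusted p = 2.08e-07) and 1.86 with NEUROG2AQ (adjusted p = 4.6e-05). The difference between forms was 0.19 (95% interval -0.11 to 0.49, adjusted p = 0.583).

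HSPA2, a member of the HSP70 family, had 10.25, 9.94, 9.40 and 10.28 with NEUROG2 and 8.36, 9.10, 8.83 and 9.15 with NEUROG2AQ, against 7.06, 7.38, 6.97 and 7.42 in control. No array of one group reached into another. Its joint difference of 2.21 ± 0.18, or 4.63-fold, was the largest among the higher genes (adjusted p = 1.64e-05). It rose by 2.76 with NEUROG2 and by 1.66 with NEUROG2AQ (adjusted p = 0.00346), and here the forms differed, by 1.11 (95% interval 0.67 to 1.54, adjusted p = 0.00287).

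3 more chaperones of the stress list passed with smaller differences. DNAJA1, an HSP40 co-chaperone that hands clients to HSP70, had 9.45, 9.16, 8.98 and 9.47 with NEUROG2 and 9.0, 9.30, 9.14 and 9.28 with NEUROG2AQ, against 8.44, 8.54, 8.88 and 8.78 in control. The 8 arrays lay above the 4 controls, by a narrow margin, and the joint difference was 0.56 ± 0.12 (adjusted p = 0.0201, but 0.0901 without control replicate 2). HSPA8, the HSP70 protein present in unstressed cells, had 12.02, 11.76, 11.75 and 11.86 with NEUROG2 and between 11.89 and 12.08 with NEUROG2AQ, against 11.56, 11.50, 11.42 and 11.44 in control. It rose by 0.43 ± 0.08 (adjusted p = 0.0118, but 0.0506 without control replicate 3), again with no overlap. HSP90AA1, an HSP90 protein of the cytosol, differed by 0.40 ± 0.09 (adjusted p = 0.0417), and its call was lost without any single array other than NEUROG2 replicate 3 (adjusted p 0.0553 to 0.0901).

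Of the 14 chaperones measured in that list, 5 passed higher and none passed lower, against 0.938% higher and 1.32% lower over all genes. The other 9 did not pass, with joint differences from -0.02 to 0.39, of which 8 were above 0 (6115 of all 13008 genes lay below 0). DNAJB9, at -0.02, serves the endoplasmic reticulum, as does HSPA5, at 0.24. The median over the 14 was 0.28 jointly, 0.27 with NEUROG2 and 0.36 with NEUROG2AQ, against 0.01 jointly over all genes. For 9 of the 14 the NEUROG2AQ difference was the larger one, though among these 14 the forms differed past the test in HSPA2 alone. The whole stress list of 37 genes, which also holds immediate early and p53 target genes, had 5 higher, all chaperones, and 0 lower in limma. At an unadjusted p under 0.05 in limma, 9 were higher and 2 lower, beside 767 and 974 of all 13008 genes. The 5 became 3 without control replicate 2 or 3. DNAJA4, another HSP40 protein and outside the list, was named after its values were seen; it had a joint difference of 0.48 ± 0.10 (adjusted p = 0.0281, up to 0.0652 without 1 array).

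**Figure D2:**
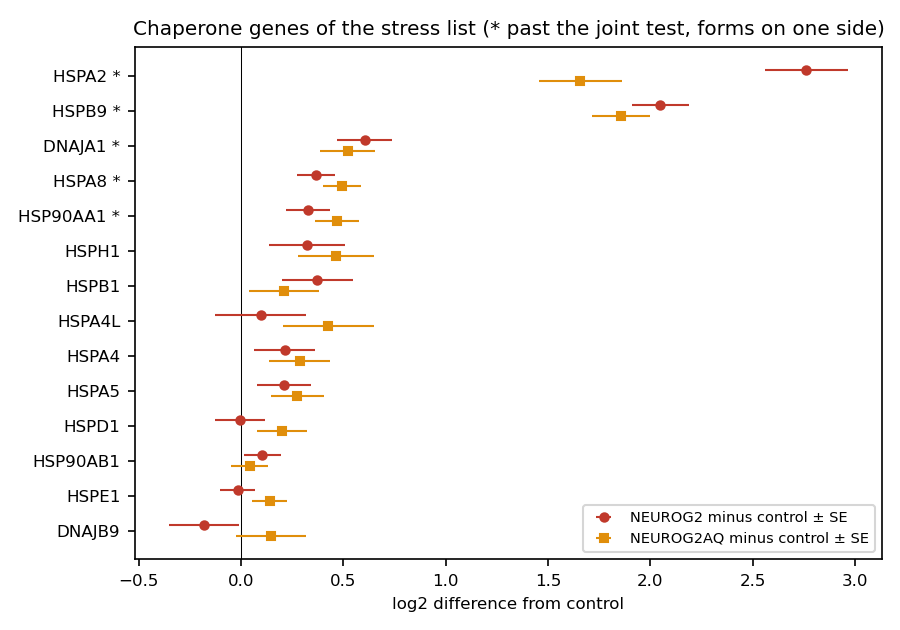
Log2 differences from control (horizontal, ± standard error) of the 14 chaperones of the stress list, with circles for NEUROG2 and squares for NEUROG2AQ; a star marks those that passed the joint test. HSPA2 and HSPB9 lie beyond 1.6 with both forms, while the others lie below 0.65.

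Other genes named by the shared size of their rise do varied things. TRIM25, an E3 ubiquitin ligase, had 4.67, 4.95, 4.90 and 5.54 with NEUROG2 and 3.76, 3.59, 3.81 and 4.02 with NEUROG2AQ, against 3.30, 2.97, 3.05 and 3.27 in control. It rose by 1.25 ± 0.14 (adjusted p = 0.00019), with the 3 groups in steps and the forms 1.22 apart (adjusted p = 0.000151). Its other probe sets, dim at means of 0.84 to 1.49, had joint differences of 0.06 to 0.12. They did not pass (adjusted p 0.682 to 0.903 in limma). SCARB1, a receptor for high-density lipoprotein, had 4.70, 4.54, 4.37 and 4.76 with NEUROG2 and 4.11, 4.23, 4.42 and 4.45 with NEUROG2AQ, against 3.86, 3.37, 3.75 and 3.83 in control. Its rise was 0.75 ± 0.11 (adjusted p = 0.00246), and the forms, 0.29 apart, did not differ past the test (adjusted p = 0.28).

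Smaller rises were seen in SPECC1, a cytoskeletal adaptor (0.70 ± 0.10, adjusted p = 0.00214), in the endophilin SH3GL3 (0.74 ± 0.12, adjusted p = 0.00395) and in the mitochondrial carrier SLC25A43 (0.54 ± 0.10, adjusted p = 0.0086). AMOTL1, an angiomotin protein that binds YAP, rose by 0.55 ± 0.09 (adjusted p = 0.00324). These passed without each single array, but a second SLC25A43 probe set had the opposite sign and the mean over its probe sets did not pass (adjusted p = 0.229). The lipoxygenase ALOX5, TRIM14, KHK, which phosphorylates fructose, the nucleotidase NT5C1B and MTUS2 had joint differences of 0.45 to 0.56 with adjusted p between 0.0194 and 0.0432. MTUS2 did not pass without control replicate 2 (adjusted p = 0.0747), and the others each lost their call without 8 to 10 of the 12 arrays, with adjusted p up to 0.149 for ALOX5. KHK and NT5C1B were among the 5 with the larger difference in NEUROG2AQ, at 0.71 against 0.39 with NEUROG2 for KHK and 0.75 against 0.34 for NT5C1B, as were MTUS2, HSPA8 and HSP90AA1.

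Among the falls, the NEUROG2 gene itself came first by the shared size of change. Its probe set had 4.10, 3.92, 3.69 and 3.89 with NEUROG2 and 4.66, 4.77, 4.56 and 4.57 with NEUROG2AQ, against 6.07, 5.61, 5.28 and 5.33 in control. The 3 groups did not overlap. Its joint difference was -1.3 ± 0.13 on the log2 scale (adjusted p = 8.65e-05), with -1.67 for NEUROG2 and -0.93 for NEUROG2AQ (adjusted p = 0.0383), and the forms differed by -0.74 (adjusted p = 0.00653). Whether this probe set reads the plasmid's own transcript is not given in the sources used here, so it checks no label. Within the list of 18 proneural factors, partners and ID genes, the other one to pass was ID3, which fell (1.32% of all genes passed lower). ID3 had 7.18, 6.66, 6.71 and 6.60 with NEUROG2 and 7.0, 6.83, 7.0 and 7.23 with NEUROG2AQ, against 7.91, 7.59, 7.36 and 7.64 in control, a joint difference of -0.72 ± 0.13 (adjusted p = 0.00635).

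Several genes of neural progenitors fell. Of 40 measured, 13 passed lower and 0 higher in limma, against 1.32% lower over all genes. At an unadjusted p under 0.05 in limma, 21 were lower and 0 higher, beside 974 and 767 of all 13008 genes. A joint difference below 0 was found in 35 of the 40, against 6115 of all genes. The forms differed past the test in 7 of the 13. Their median was -0.31 jointly, -0.47 with NEUROG2 and -0.29 with NEUROG2AQ. The count was 11 to 14 when single arrays were left out, and 14 without control replicate 1. In bulk RNA, fewer cells of a type and less RNA per cell cannot be told apart.

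SOX2, a SoxB1 factor that holds cells in the progenitor state, had 5.45, 5.09, 5.27 and 5.18 with NEUROG2 and 5.53, 5.37, 4.78 and 5.21 with NEUROG2AQ, against 6.46, 5.93, 5.66 and 6.02 in control. All 8 arrays lay below all 4 controls while the forms overlapped. It fell by 0.78 ± 0.15 on the log2 scale (adjusted p = 0.0132), with -0.77 for NEUROG2 and -0.79 for NEUROG2AQ. The forms were 0.02 apart (95% interval -0.35 to 0.40). Its relative SOX1 had 6.63, 6.89, 6.45 and 6.55 with NEUROG2 and 6.98, 6.91, 7.0 and 6.91 with NEUROG2AQ, against 7.65, 7.45, 7.46 and 7.68 in control, a joint difference of -0.77 ± 0.09 (adjusted p = 0.000391). SOX3, the third of this family, lay at -0.39 ± 0.10 and missed the threshold (adjusted p = 0.0685), but passed without NEUROG2 replicate 1 (0.0454).

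PAX7, a factor of dorsal progenitors, fell by 0.54 ± 0.08 on the log2 scale (adjusted p = 0.00308), by 0.58 with NEUROG2 and 0.50 with NEUROG2AQ. PAX6, a patterning factor of the neural tube, had 8.54, 8.76, 8.49 and 8.31 with NEUROG2 and 9.37, 9.27, 9.41 and 9.25 with NEUROG2AQ, against 9.52, 9.75, 10.05 and 9.79 in control. All 3 groups were separate, the joint difference was -0.85 ± 0.11 (adjusted p = 0.000486), and the fall was larger with NEUROG2, by 0.80 (adjusted p = 0.000558). ZIC1, a zinc finger factor of dorsal cells, likewise fell jointly by 0.93 ± 0.13 (adjusted p = 0.0011), with -1.51 for NEUROG2 and -0.35 for NEUROG2AQ (difference between forms, adjusted p = 0.0001). MSX1, MSX2, GLI3 and TSHZ3, transcription factors of patterned progenitors, also passed lower with differences between the forms, whereas RFX4, at -0.98 ± 0.16 (adjusted p = 0.00461), had forms that did not differ past the test. The remaining called members were less secure by the probe sets read here. NKX6-2 (-0.62 ± 0.15, adjusted p = 0.0418) and FGFR3 (-0.87 ± 0.20, adjusted p = 0.0411) lost their calls without most single arrays, with adjusted p up to 0.134 and 0.154, and ZIC2 without control replicate 2 (0.059) or 4 (0.0648). A second FGFR3 probe set passed at -1.01 ± 0.12 (adjusted p = 0.000391 in limma), with -1.42 for NEUROG2 and -0.59 for NEUROG2AQ. Its other probe sets did not pass (adjusted p = 0.15 and 0.456), while the mean over its probe sets did.

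Further regulators of the neural tube, outside that list, stood among the 10 largest shared falls. SP8, a zinc finger factor, had 7.91, 8.26, 8.17 and 7.63 with NEUROG2 and 8.61, 8.51, 8.43 and 8.13 with NEUROG2AQ, against 9.54, 9.31, 9.16 and 9.01 in control. It fell by 1.05 ± 0.13 on the log2 scale, 2.06-fold (adjusted p = 0.000586), and the forms, -0.42 apart, did not differ past the test (adjusted p = 0.147). SALL1, also a zinc finger factor, had 8.57, 8.94, 8.82 and 8.64 with NEUROG2 and 8.96, 9.13, 8.70 and 8.56 with NEUROG2AQ, against 9.31, 9.66, 9.66 and 9.5 in control. It fell by 0.74 ± 0.12 (adjusted p = 0.00336), with -0.79 for NEUROG2 and -0.70 for NEUROG2AQ, and the forms did not differ past the test (adjusted p = 0.833).

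**Figure D3:**
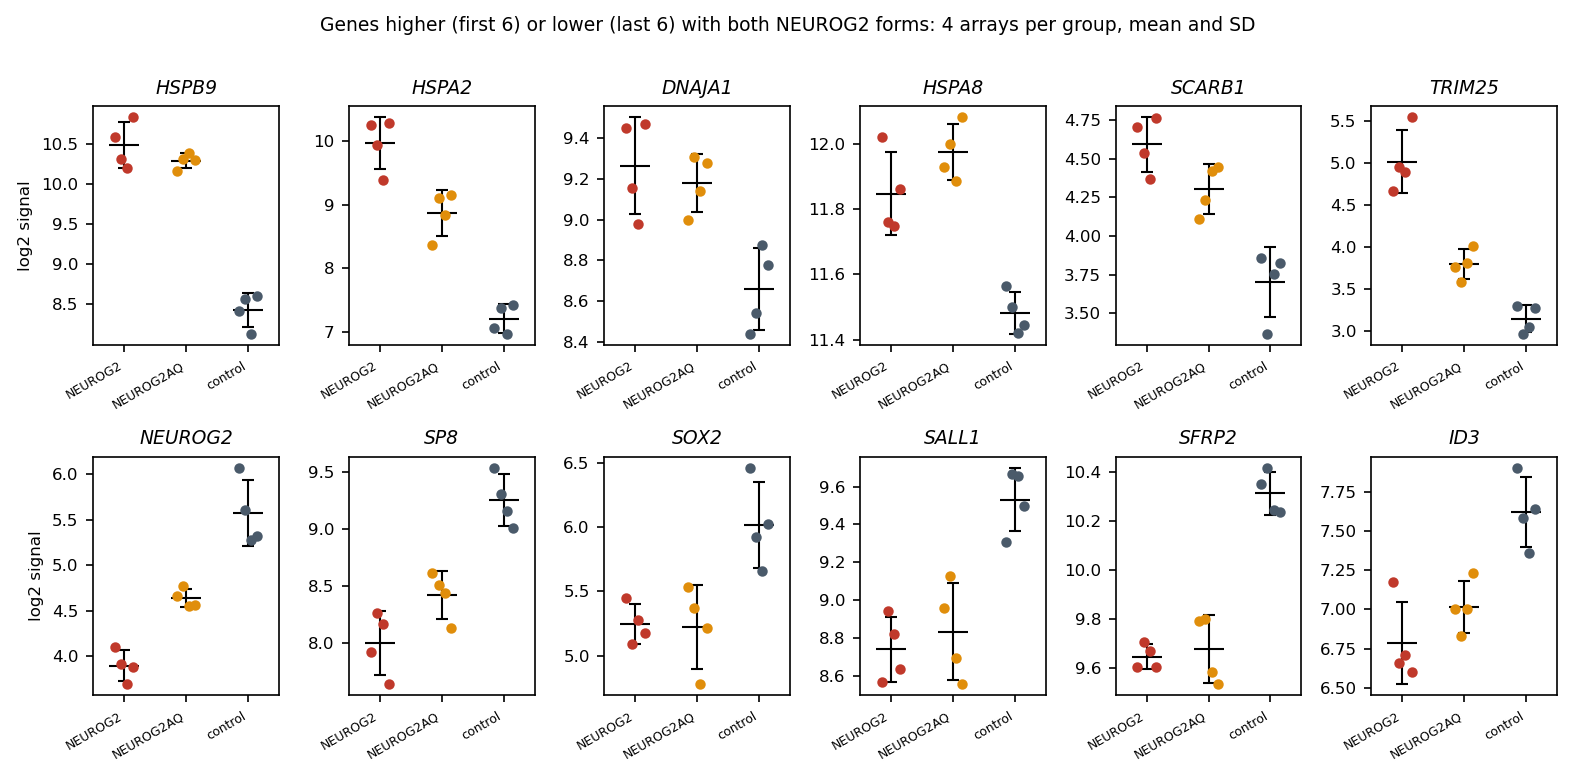
Log2 signal of 12 genes on each of the 12 arrays, in the order NEUROG2, NEUROG2AQ and control within each panel, with the mean and SD of 4 arrays in black. In each of the 12 panels the 8 arrays of both forms lie on one side of the 4 control arrays, above them for the first 6 genes and below them for the last 6. The genes were picked from those with this separation, which 25 of the 122 higher and 68 of the 172 lower genes had.

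The other members of the top 10 falls are effectors rather than transcription factors, apart from RFX4. CCN2, a secreted matrix protein known as a YAP target, had 7.61, 7.40, 7.15 and 6.98 with NEUROG2 and 8.40, 8.72, 8.08 and 8.22 with NEUROG2AQ, against 9.31, 9.16, 9.04 and 9.06 in control. It fell by 1.32 ± 0.13 (adjusted p = 7.58e-05), more with NEUROG2, by 1.07 (adjusted p = 0.000283). TNFAIP3, an inhibitor of NF-kappa-B signalling, had 6.07, 6.17, 5.87 and 5.83 with NEUROG2 and 6.04, 5.99, 6.17 and 5.50 with NEUROG2AQ, against 6.49, 6.57, 6.96 and 6.70 in control. Its joint difference was -0.73 ± 0.13 (adjusted p = 0.00693), with -0.70 for NEUROG2 and -0.76 for NEUROG2AQ. HAS2, which makes hyaluronan, fell by 0.97 ± 0.17 (adjusted p = 0.0075), and PRICKLE1, a planar polarity protein read at low signal, fell by 0.75 ± 0.12 (adjusted p = 0.0031). The formin FHOD3, also dim, lay at -0.83 ± 0.18 (adjusted p = 0.0264). FHOD3 did not pass without control replicate 2 (0.0679) or 3 (0.102) or without NEUROG2 replicate 1 (0.0506) or 3 (0.058). KLF15, chosen because its NEUROG2AQ difference was the larger, lay at -0.50 ± 0.11 (adjusted p = 0.0349) and lost its call without 9 of the arrays (up to 0.149).

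HOX genes set position along the body axis. They and their TALE cofactors had a joint difference below 0 in 24 of 28 cases, against 6115 of all 13008 genes. Of the 28, 6 passed lower and 0 higher in limma (14 and 0 at an unadjusted p under 0.05, beside 974 and 767 of all genes). Over all genes 1.32% passed lower and 0.938% higher. The median was -0.31 jointly, -0.55 with NEUROG2 and -0.21 with NEUROG2AQ, and the count was 5 to 7 without single arrays. HOXB3 had 7.61, 7.79, 7.54 and 7.71 with NEUROG2 and 7.78, 7.93, 7.96 and 7.34 with NEUROG2AQ, against 8.22, 8.27, 8.38 and 8.48 in control. The 8 arrays lay below the controls, the joint difference was -0.63 ± 0.11 (adjusted p = 0.00758), and the forms were -0.09 apart (95% interval -0.37 to 0.19). HOXA4 fell by 0.95 ± 0.13 (adjusted p = 0.00088), with -1.51 for NEUROG2 and -0.39 for NEUROG2AQ, and HOXA6 by 0.86 ± 0.15 (adjusted p = 0.00685). HOXA2, HOXA3 and HOXD4 had joint differences of -0.59, -0.63 and -0.62, and HOXA2 did not pass without control replicate 2 (0.0683) or 4 (0.0527). In the 5 genes other than HOXB3 the forms differed past the test.

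In the WNT pathway, 6 of 46 genes passed lower and 1 higher, against 1.32% lower and 0.938% higher over all genes. SFRP2, a secreted protein that binds WNTs, had 9.60, 9.70, 9.67 and 9.60 with NEUROG2 and 9.79, 9.80, 9.58 and 9.53 with NEUROG2AQ, against 10.35, 10.42, 10.24 and 10.24 in control. The 8 arrays lay well below the controls, the joint difference was -0.65 ± 0.08 (adjusted p = 0.00058), and NEUROG2AQ alone gave -0.64 (adjusted p = 0.02). The forms were -0.03 apart (95% interval -0.23 to 0.17). The WNT receptor FZD1 had 7.67, 7.69, 7.48 and 7.39 with NEUROG2 and 7.87, 8.10, 8.16 and 8.06 with NEUROG2AQ, against 8.71, 8.56, 8.65 and 8.55 in control, a fall of 0.82 ± 0.09 (adjusted p = 0.000144). Its relative FZD10, at low signal, fell by 0.88 ± 0.15 (adjusted p = 0.00624), and the dorsal ligand WNT3A by 0.73 ± 0.11 (adjusted p = 0.00329), mostly with NEUROG2 (-1.27, against -0.18 with NEUROG2AQ). WNT4 had -0.91 jointly but -0.05 with NEUROG2AQ, which lay above control without control replicate 1. NOTUM, which inactivates WNTs, did not pass without control replicate 2 (0.0597) or 4 (0.0677), and the 1 higher gene, WNT11B, at 0.37, did not without 11 of the 12 arrays (up to 0.19).

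Few genes of the other signalling lists passed, beside 1.32% lower and 0.938% higher over all genes. In the hedgehog pathway 2 of 16 were lower, GLI3, its transcriptional effector, and BOC, a co-receptor (-0.66 ± 0.11, adjusted p = 0.00507), and 5 were lower without control replicate 1. Of 20 retinoid genes 2 were lower, NR2F2, an orphan receptor (-0.64 ± 0.11, adjusted p = 0.00523), and CYP26A1, the enzyme that degrades retinoic acid. CYP26A1 fell by 1.31 ± 0.17 jointly (adjusted p = 0.000586), yet by 2.45 with NEUROG2 and by 0.18 with NEUROG2AQ, which overlapped control. Among 28 Hippo and YAP target genes CCN2 and F3, tissue factor, fell (F3 by 1.13 ± 0.17, adjusted p = 0.00244) and AMOTL1 rose. The 2 of 34 BMP and TGF-beta genes that passed lower, BMPR1B and SMAD7, became 0 without control replicate 3 or 4, and 1 without control replicate 2, NEUROG2 replicate 1 or 3, or NEUROG2AQ replicate 3. Likewise the 2 of 31 FGF and MAPK genes, FGFR3 and SPRED2, became 0 without control replicate 3, 1 without control replicate 2 or 4 and without each of 6 arrays of the forms. The second FGFR3 probe set, at -1.01 (adjusted p = 0.000391 in limma), is not counted here.

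Guidance and matrix genes changed in small numbers. The share lower was 5.77% of guidance, 1.85% of matrix and 2.56% of adhesion genes, against 1.32% over all genes. Of matrix genes 1.85% passed higher, against 0.938% over all genes. Of 52 axon guidance and migration genes 3 were lower. These were the chemokine receptor CXCR4, the semaphorin SEMA3D (-0.85 ± 0.10, adjusted p = 0.000296) and the small GTPase RHOB (-0.74 ± 0.11, adjusted p = 0.00192). CXCR4 had 6.05, 6.39, 6.4 and 6.13 with NEUROG2 and 7.07, 7.15, 7.27 and 6.89 with NEUROG2AQ, against 7.54, 7.59, 7.92 and 7.43 in control. The 3 groups were separate, and it fell by 0.95 ± 0.11 (adjusted p = 0.000301). Of 54 extracellular matrix and integrin genes 1 was lower, HAS2, and 1 higher, SPARC, which did not pass without control replicate 3 (0.0507) and crossed sides without NEUROG2AQ replicate 2. Other SPARC probe sets had NEUROG2AQ at -0.06 and -0.02. With the mean over its probe sets SPARC did not count as shared (adjusted p = 0.0182 in limma). Of 39 adhesion genes 1 was lower, CRB2, whose NEUROG2AQ mean crossed control without control replicate 2 or NEUROG2AQ replicate 4.

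Medians of the G2 and M phase, the DNA replication and repair, and the G1 and S phase lists lay below 0 jointly and with NEUROG2. With NEUROG2AQ and all 4 controls they lay above 0, and control replicate 1 had the lowest control mean in each list. Over all genes 1.32% passed lower and 0.938% higher. Of 66 G2 and M phase genes 7 passed lower and 0 higher in limma (9 and 0 at an unadjusted p under 0.05, beside 974 and 767 of all 13008 genes). The median was -0.27 jointly, -0.74 with NEUROG2 and 0.13 with NEUROG2AQ, and the forms differed past the test in all 7. Control replicate 1 stood apart here too: the mean log2 signal over the list was 5.79 to 6.27 with NEUROG2 and 6.78 to 6.99 with NEUROG2AQ, against 6.79 to 6.83 in 3 of the controls and 6.39 in control replicate 1. Without that array the medians were -0.42 jointly, -0.85 with NEUROG2 and 0.05 with NEUROG2AQ. The 7 called genes became 15 without control replicate 1 and 4 without control replicate 2 or 3. CENPI, a centromere protein, had 4.88, 5.37, 4.83 and 4.96 with NEUROG2 and 6.51, 6.39, 6.18 and 6.41 with NEUROG2AQ, against 6.62, 6.54, 6.80 and 6.25 in control. The NEUROG2 arrays were apart and the NEUROG2AQ arrays overlapped control, so the joint difference of -0.86 ± 0.12 (adjusted p = 0.00127) holds -1.54 and -0.18. CENPL, of the same complex, gave -0.83 ± 0.10 (adjusted p = 0.00043) in the same way. The topoisomerase TOP2A passed without each single array as well, while FOXM1, a transcription factor of mitotic genes, did not without control replicate 2 (0.0626) or 3 (0.0622).

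Of 68 DNA replication and repair genes 4 passed lower, GINS1, PCNA, RPA3 and UHRF1, each with the forms apart and each lost without at least 1 array. Other GINS1 probe sets had joint differences of -0.19 to 0.03, and other UHRF1 probe sets had NEUROG2AQ at -0.04 to 0.13. None of these passed. With the mean over probe sets GINS1 did not pass (adjusted p = 0.19 in limma) and UHRF1 did not count as shared (0.0238). The list's medians were -0.49 with NEUROG2 and 0.10 with NEUROG2AQ. Its mean log2 signal was 7.18 to 7.29 with NEUROG2AQ, against 7.09 to 7.19 in control replicates 2 to 4 and 7.02 in control replicate 1. The count of 4 called genes became 10 without control replicate 1, of which 3 were among the 4 and 7 were not. It was 0 without control replicate 2 and 1 without control replicate 3. Without control replicate 4, NEUROG2 replicate 3 or 4, or NEUROG2AQ replicate 1, 3 or 4 it was 2. Of the 2 without control replicate 4, UHRF1 was among the 4 and ORC2 was not. Among 26 G1 and S phase regulators 3 were lower, and 7 without control replicate 1, which held the same 3 and 4 others. Their medians were -0.48 with NEUROG2 and 0.05 with NEUROG2AQ. The mean log2 signal over these 26 was 6.88 to 7.01 with NEUROG2AQ. It was 6.91 to 7.02 in control replicates 2 to 4 and 6.81 in control replicate 1, so the side of NEUROG2AQ depends on that array. MYCN, a driver of progenitor growth, had 9.02, 9.37, 9.07 and 9.20 with NEUROG2 and 10.19, 10.11, 10.09 and 9.94 with NEUROG2AQ, against 10.42, 10.38, 10.34 and 10.45 in control. It fell by 0.77 ± 0.09 (adjusted p = 0.000175), with every NEUROG2AQ array just below the controls and the NEUROG2 arrays lower still. MYC fell by 1.01 ± 0.14 (adjusted p = 0.00137), by 1.65 with NEUROG2 and 0.37 with NEUROG2AQ.

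CCNE1, the cyclin of the G1 to S transition, had 5.15, 5.17, 4.92 and 5.08 with NEUROG2 and 5.28, 5.14, 5.52 and 5.27 with NEUROG2AQ, against 5.71, 5.77, 5.78 and 5.52 in control. It fell by 0.50 ± 0.09 (adjusted p = 0.00922), without a difference between forms past the test (adjusted p = 0.323), though without control replicate 2 its adjusted p was 0.0519. Its sister cyclin CCNE2 lay at -0.35 ± 0.09 and did not pass (adjusted p = 0.0698), with -0.87 for NEUROG2 and 0.18 for NEUROG2AQ. Cyclins D1, D2 and D3 (CCND1, CCND2, CCND3) had joint differences of -0.35, -0.05 and -0.09, and CCNA2 of -0.38, none past the test, although CCND1 passed without control replicate 1 (adjusted p = 0.0286). The cell cycle inhibitor CDKN1B had all 8 arrays, 6.95 to 7.36, below the controls, 7.43 to 7.61, yet its -0.35 ± 0.09 missed the threshold (adjusted p = 0.082). None of 28 antiproliferative and cell cycle exit genes passed on one side in limma. At an unadjusted p under 0.05 in limma, 1 was higher and 3 lower, beside 767 and 974 of all 13008 genes. In 4 of the 28 the joint test was passed with the forms on opposite sides, beside 110 of all 13008 genes.

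**Figure D4:**
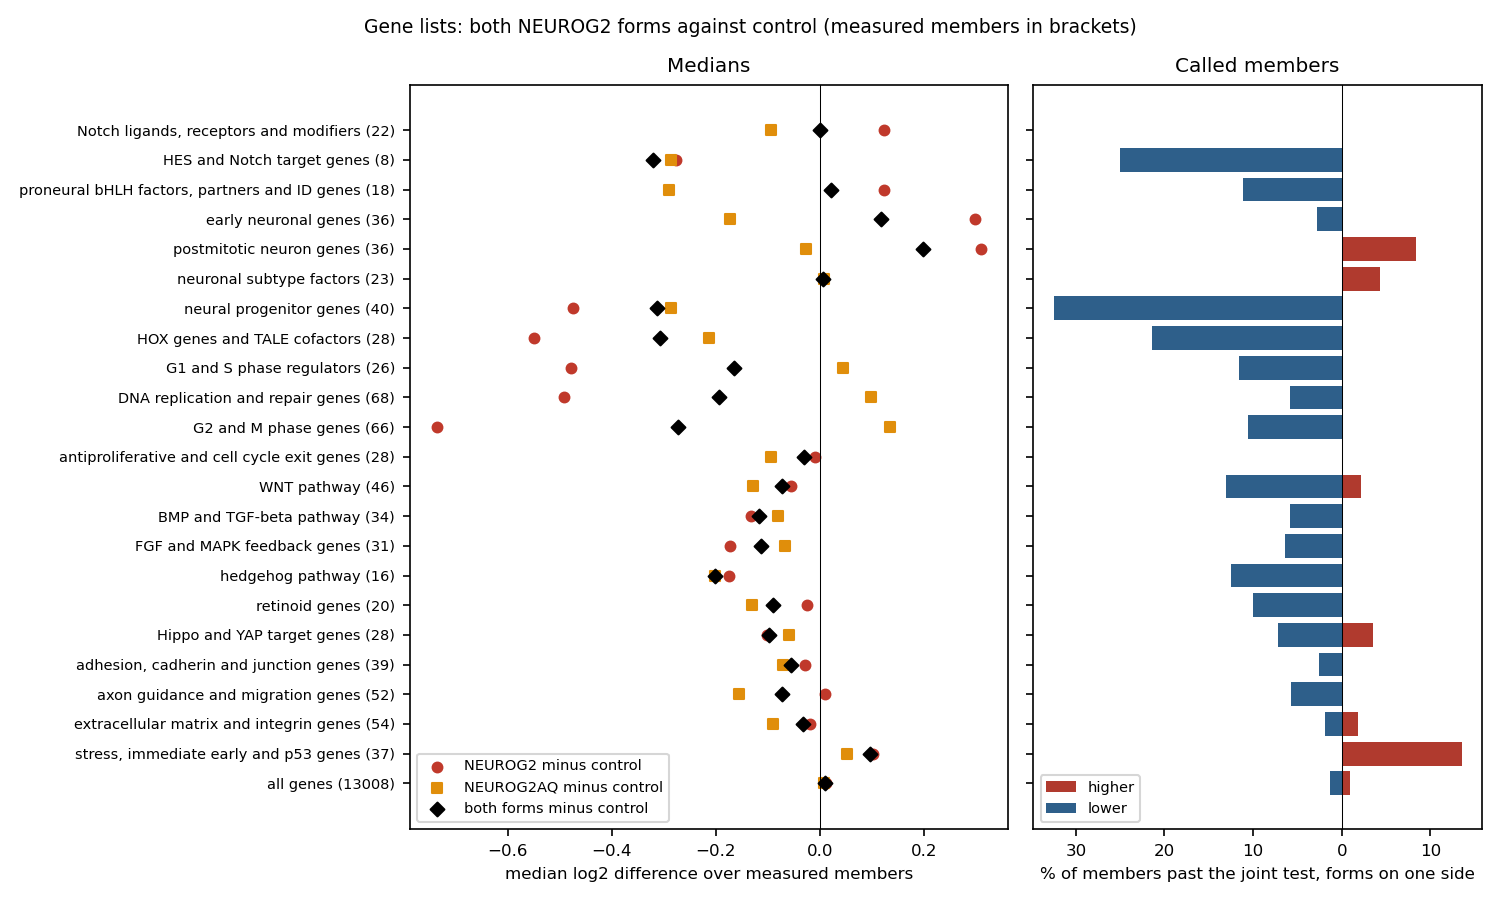
Left, the median log2 difference from control over the measured members of each gene list, for NEUROG2, NEUROG2AQ and both forms together; right, the percentage of members that passed the joint test with both forms on one side, higher to the right and lower to the left of 0. Progenitor genes (32.5% lower) and HOX and TALE genes (21.4% lower) have all 3 medians below 0. Several other lists do too, among them the 8 HES and Notch target genes (25% lower). In the G2 and M phase list the NEUROG2 and NEUROG2AQ medians lie on opposite sides of 0 (-0.74 and 0.13, or -0.85 and 0.05 without control replicate 1).

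Some genes, neuronal ones among them, had the forms on opposite sides of control, and their joint difference then averages values of unlike sign. The joint test without the condition on sides was passed by 404 genes (3.11%) and 694 probe sets (1.84%). Of all 37693 probe sets, called or not, 24205 had both forms on one side of control. Among the 694, 176 had the forms on opposite sides. NEUROG2 was the higher form in 156 of these, and its difference from control was the larger in 175. TAGLN3, a neuron-specific calponin-family protein, had 9.33, 9.76, 9.82 and 9.41 with NEUROG2 and 5.04, 5.29, 5.07 and 5.62 with NEUROG2AQ, against 6.38, 6.55, 6.22 and 6.09 in control. It rose with NEUROG2, by 3.27, and fell with NEUROG2AQ, by 1.06 (adjusted p = 0.0161). The Notch ligand DLL1 had 9.99, 10.28, 10.57 and 10.01 with NEUROG2 and 6.89, 7.26, 6.84 and 6.64 with NEUROG2AQ, against 8.43, 8.76, 8.48 and 8.52 in control. Its differences of 1.66 and -1.64 left a joint value of 0.01 ± 0.13 (adjusted p = 0.986).

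HES6, which eases neuronal differentiation, had 10.73, 11.11, 11.13 and 10.69 with NEUROG2 and 7.03, 7.18, 7.29 and 7.28 with NEUROG2AQ, against 8.78, 8.67, 8.64 and 8.38 in control. The joint value was 0.44 ± 0.11 (adjusted p = 0.0589) between differences of 2.30 and -1.42. NHLH1, a bHLH factor of newborn neurons, had 7.60, 8.36, 7.91 and 8.11 with NEUROG2 and 5.07, 5.27, 4.75 and 4.89 with NEUROG2AQ, against 5.76, 5.36, 5.30 and 5.32 in control. NEURL1, a ubiquitin ligase of the Notch pathway, and PROX1, a homeobox factor of differentiating cells, rose with NEUROG2 by 3.12 and 1.82 and lay at -0.07 and -0.25 with NEUROG2AQ (adjusted p = 0.969 and 0.777). NEURL1 counted as shared without control replicate 4, when its NEUROG2AQ mean crossed to the upper side. It also counted as shared with array weights (adjusted p = 1.19e-05 in limma) and with the mean of its probe sets (adjusted p = 8.95e-06). Another NEURL1 probe set passed the joint test at 1.91 ± 0.11 (adjusted p = 9.43e-07), with 3.54 for NEUROG2 and 0.29 for NEUROG2AQ. A dimmer probe set did not pass (adjusted p = 0.297), with NEUROG2AQ at 0.18. The side of NEUROG2AQ for NEURL1 thus depended on the probe set read.

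**Figure D5:**
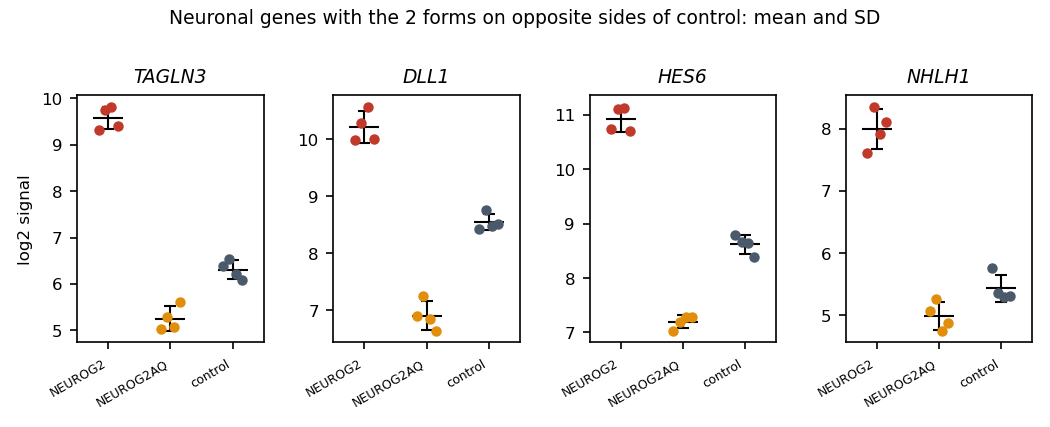
Log2 signal of TAGLN3, DLL1, HES6 and NHLH1 on each of the 12 arrays, with the mean and SD of 4 arrays per group in black. In each panel the 4 NEUROG2 arrays lie above and the 4 NEUROG2AQ arrays below the 4 control arrays. The genes were picked as examples of forms on opposite sides.

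The neuronal lists held few shared changes, beside 0.938% higher and 1.32% lower over all genes. Of 36 early neuronal genes 6 passed on opposite sides, beside 110 of all 13008 genes, and 1 on one side, CXCR4, lower. Of 22 Notch ligands, receptors and modifiers none passed on one side in limma. At an unadjusted p under 0.05 in limma, 0 were higher and 2 lower, beside 767 and 974 of all 13008 genes. Of 8 HES and Notch target genes 2 passed lower. These were HES4 (-0.57 ± 0.09, adjusted p = 0.00502) and NRARP (-0.61 ± 0.12, adjusted p = 0.0194), both with the forms apart, while HES5 lay at -0.21 (adjusted p = 0.594). Of 36 genes of postmitotic neurons 3 passed higher. These were MAP2, CNTN2 and RTN1, with 0.36 to 0.46 jointly and 0.03 to 0.17 with NEUROG2AQ. None of these 3 passed without control replicate 1, 2 or 4, NEUROG2 replicate 4, or NEUROG2AQ replicate 1 or 3 (adjusted p up to 0.154 for CNTN2). MAP2 was the 1 of them that passed without NEUROG2 replicate 2 or 3, and 2 of them passed without each of the other 4 arrays. Without control replicate 1 the list's 2 called genes were TUBB3 and PENK, and without NEUROG2AQ replicate 3 its 1 was NEFL. The 1 of 23 neuronal subtype factors, VSX1, at 0.60 ± 0.14 jointly and 0.02 with NEUROG2AQ, likewise lost its call without 10 arrays (up to 0.159). TUBB3 (0.44, adjusted p = 0.127), ELAVL4 (0.08, adjusted p = 0.825) and NEUROD4 (0.27, adjusted p = 0.332), neuronal genes of the fixed set, did not pass, although TUBB3 did without control replicate 1 (0.00797).

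Markers of the tissue and of its neighbours were read beside these results, in which 1.32% of all genes passed lower and 0.938% higher. All 9 measured genes that define the neural tube had joint differences below 0, against 6115 of all 13008 genes. Of the 9, 6 passed lower, SOX1, SOX2, PAX6, PAX7, ZIC1 and ZIC2, which are also progenitor genes. NKX6-1 (-0.26), CDH2 (-0.25) and SOX3 did not pass. Their mean log2 signal was 7.93 to 8.08 with NEUROG2 and 8.26 to 8.36 with NEUROG2AQ, against 8.69 to 8.81 in control, with none of the 9 dim. Of 20 neural crest markers 3 passed lower, MSX1, RHOB and SOX10, the last of which crossed sides without control replicate 4 or NEUROG2AQ replicate 4. Their mean was 4.70 to 4.93 with NEUROG2 and 5.01 to 5.27 with NEUROG2AQ, against 5.12 to 5.29 in control.

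No marker of somite and paraxial mesoderm (22 measured), notochord and floor plate (10) or blood and endothelium (23) passed in limma. At an unadjusted p under 0.05 in limma, 4, 3 and 4 were lower and 0, 0 and 2 higher, beside 974 lower and 767 higher of all 13008 genes. The medians of the first 2 lists were -0.27 and -0.20, and -0.04 and -0.10 without control replicate 1. TWIST1, at -0.81 ± 0.39, FOXA2, at -0.84 ± 0.22, and the embryonic globin HBZ, at -1.48 ± 0.51, had the largest differences of these and adjusted p of 0.439, 0.07 and 0.206. FOXA2 passed without control replicate 4 (0.0222) or NEUROG2 replicate 1 (0.0492), and HBZ without control replicate 3 (0.0345). MYOD1, TBX6, TAL1 and CDH5, which define muscle, paraxial mesoderm, blood and endothelium, were dim in every group, with means of 1.5 to 2.2. Other members of their lists were not dim. A mean below the lowest array median was found in 8 of 22 somite and paraxial mesoderm markers. It was found in 13 of 23 blood and endothelium markers and in 3643 of all 13008 genes. Among 17 surface ectoderm and placode markers DLX5 passed lower, and among 20 endoderm and lateral plate markers CXCR4 did, beside 1.32% of all genes. The part of other cell types in the results was not tested.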

How the data were processed

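Sorted cells, GFP-positive and pooled by replicate, gave the RNA for 12 arrays, 4 per group. The deposited values are log2 signals per probe set, made by the authors with GCOS, RMA and affy per the submitters' processing notes, which give no versions. Base 2 was inferred from the range of 0.49 to 13.97. RMA makes arrays share 1 distribution, so a change common to most genes would not be seen; array medians were 2.81 to 2.90. Precision is limited by how few arrays there are.

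Of 38535 probe sets, 37693 chick ones were tested and 842 were not (96 controls of the manufacturer and 746 further ones, including 57 reporters). Platform annotation, updated through a RefSeq gene table of assembly GRCg7b used for names only, gave 1 symbol to 27166, several to 177 and none here to 10350. The 13008 genes are read from their probe set of highest mean; 7334 have more than 1.

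All 12 arrays were fitted in limma 3.58.1 (R 4.3.3, lmFit and eBayes, 3 group means, 9 residual degrees of freedom), with Benjamini-Hochberg adjustment over 37693 probe sets in each contrast and a threshold of 0.05. The contrasts were both forms equally weighted minus control, each form minus control, and NEUROG2 minus NEUROG2AQ. 3′ to 5′ probe differences were compared by a two-sided exact permutation test over 495 assignments, which can reach 0.00404 (Python 3.11.15). The procedure was tested on simulated data.

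The members, the 22 gene lists, the 7 marker lists and the naming rule were chosen with earlier results of these data known. The rule names the 10 largest shared rises and falls (all 8 arrays beyond all 4 controls, ranked by the smaller of both forms' differences), up to 3 called members per list or the largest where none passed, the 5 largest rises and falls at least as large with NEUROG2AQ, and a fixed set. Other list members in the text (such as SFRP2, SOX1, PAX7 and PCNA) and DNAJA4 were named after their values were seen. Alternatives were filters, moderation, array weights, scaling, a replicate block, other ways to read a gene, a 3′ to 5′ covariate, a fold limit and leaving out arrays.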

Additional observations from a re-analysis of the deposited data

Results flagged for a closer look

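In 14 of 270 groups of 4 arrays looked at over the named genes, the highest or lowest array lay far from the other 3 by Dixon's criterion. Chance gives about 1 in 20 groups, and 3 of the 14 fall in control replicate 1. In control replicate 1, RPA3 had a log2 signal of 10.19 (others 10.48 to 10.49), NEUROD4 2.67 (2.22 to 2.27) and NHLH1 5.76 (5.30 to 5.36). In control replicate 4, FZD10 had 3.90 (3.33 to 3.40).

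Among NEUROG2 arrays, KHK had 3.28 (2.77 to 2.81) and MAP2 4.07 (3.77 to 3.80) in replicate 4. RPA3 had 9.73 (9.80 to 9.81) and CYP26A1 5.16 (5.84 to 5.85) in replicate 3. SEMA3D had 6.47 (6.15 to 6.19) and MSX1 8.32 (8.67 to 8.68) in replicate 2. Among NEUROG2AQ arrays, CENPL had 7.27 in replicate 1 (7.07 to 7.10), CCND2 7.93 in replicate 2 (7.74 to 7.77), CCND1 10.13 in replicate 3 (9.91 to 9.93) and F3 4.44 in replicate 4 (4.73 to 4.77). The calls of CENPL, CYP26A1, F3, SEMA3D, MSX1 and FZD10 held without each single array.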

How the results depend on the processing

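Of 2160 values of the 90 named genes under 24 alternatives, 1816 kept their side of the threshold, 328 lost and 16 gained a call. No called value changed sign; 9 values of 2 genes that did not pass did, DLL1 (0.01, down to -0.05) under 8 alternatives and ELAVL4 (0.08, to -0.02) with the mean per gene. Of the 70 called genes, 42 passed without each single array. The counts of probe sets with a joint difference, 197 higher and 321 lower, ranged over 106 to 276 and 141 to 541 with single arrays left out, and became 296 and 517 with array weights, and 24 and 22 when a log2 difference of at least 1 was also asked for. Without control replicate 1 and NEUROG2AQ replicate 4 together they were 291 and 466. Averaging the probe sets of a gene gave 210 lower genes. With the 8 arrays fitted as 1 group, so that the difference between forms counts as error by construction, 3 and 6 passed. They were HSPA2, both HSPB9 probe sets, PAX7, SFRP2, ZFP36L1, SOX1 and 2 probe sets without a symbol.

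Counts of probe sets past the test with each form alone, 3 higher and 2 lower, became 5 and 12 with trend and robust moderation. The lower count was 4 with array weights or 1 probe set per gene, 5 with the mean per gene, 6 with the 3′ to 5′ covariate, 0 with the fold limit (5 at an unadjusted p under 0.05 in limma), and 0 to 6 without single arrays (437 to 938 unadjusted).

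Between the forms, 1385 probe sets were higher and 901 lower with NEUROG2. The higher count was 813 with 1 probe set per gene, 707 with the mean per gene, 437 with the fold limit and 1137 to 1605 without single arrays. The lower count was 137 with the fold limit, 583 to 1335 without single arrays (583 without NEUROG2 replicate 3) and 1461 without control replicate 1 and NEUROG2AQ replicate 4 together. The 3′ to 5′ difference was -0.10 for GAPDH in place of 0.04. The cause was not tested.

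In their deviations from group means, same-numbered arrays of different groups correlated between -0.30 and 0.23, and the other pairs between -0.41 and 0.42. Deviations from a mean of 4 arrays depend on each other, so these values cannot decide whether replicate numbers pair the samples. With the replicate block, 189 probe sets were higher and 323 lower jointly, of which 164 and 261 were among the 197 and 321, and 6 were lower with each form alone. Under the block the calls of HSP90AA1, ALOX5, CNTN2, FGFR3, KHK, MAP2, RPA3, RTN1 and VSX1 ended (adjusted p 0.0563 to 0.0837) and FOXA2 gained one (0.0487). Each of ALOX5, CCNE1, CRB2, DLX5, FHOD3, GINS1, KLF15, MAP2, MTUS2, SLC25A43, TRIM14 and TSHZ3 had another probe set of opposite sign. None of these passed. Further probe sets of CCNE1 (-0.55, adjusted p = 0.0132 in limma), CRB2 (-0.58, adjusted p = 0.0116) and TSHZ3 (-0.86, adjusted p = 0.00662) passed lower, as reported. Weak signal limits PRICKLE1, FHOD3, FZD10 and KHK, whose means lie near the array medians.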

Other observations

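Among genes outside the naming rule, chosen after their values were seen, the largest shared fall with forms that did not differ past the test was that of CD83, an immune surface protein read at low signal. It had 1.81, 2.38, 2.30 and 2.56 with NEUROG2 and 2.72, 2.84, 3.10 and 2.26 with NEUROG2AQ, against 2.92, 3.89, 4.54 and 4.05 in control, a joint difference of -1.36 ± 0.24 (adjusted p = 0.00682 in limma). One NEUROG2AQ array lay above the lowest control. ZFP36L1 and ZFP36L2, related proteins that bind mRNA and speed its decay, both fell. ZFP36L1 had 7.68, 7.81, 7.67 and 7.44 with NEUROG2 and 7.94, 7.88, 7.65 and 7.61 with NEUROG2AQ, against 8.66, 8.42, 8.42 and 8.23 in control, and its joint difference was -0.72 ± 0.10 (adjusted p = 0.00159). ZFP36L2 fell by 1.01 jointly, by 1.59 with NEUROG2 and 0.42 with NEUROG2AQ. Both passed without each single array. The matrix protein CYR61 (-1.0), like CCN2 of the CCN family, and the growth factor GDF10 (-1.0) also fell.

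Among the rises of at least 1 on the log2 scale, 14 genes in all, the NEUROG2AQ difference was at most 0.53, in TRIM36, in all but HSPB9, HSPA2 and TRIM25. USP41, for example, had 2.96 with NEUROG2 and 0.19 with NEUROG2AQ, and LRRN2, a membrane protein with leucine-rich repeats, 2.23 and 0.33.

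The 57 reporter probe sets were outside every comparison above. Of these, 3 had a mean log2 signal above 5, and 2 of them read 13.8 to 13.97 on every array. The third read 5.31 ± 0.18 with NEUROG2 and 4.79 ± 0.27 with NEUROG2AQ, against 7.24 ± 0.24 in control (SD, n = 4 each), a difference of -2.19 (two-sided exact permutation p = 0.00404, unadjusted, the smallest possible). The design text names the control plasmid differently from the other 2. Any further difference between the plasmids cannot be told apart from the NEUROG2 forms in a comparison with control.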
